A study of Mus musculus with 24 samples.

Results

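The miR-297, miR-466, miR-467 and miR-669 families are rodent miRNAs built largely of TG or CA dinucleotide repeats. They were followed here in the intima of mouse carotid arteries. In miRNA names, a star marks a minor strand. Members were all probes whose target name begins with one of these family names and does not end in a star. This gave 40 of the 655 probes on the array: 4 of miR-297, 16 of miR-466, 8 of miR-467 and 12 of miR-669. The rule reads names and no measured signal, but it was set with earlier results of these data known. In all, 38 probes stand for a single miRNA name. The probe called miR-466a-3p here also stands for miR-466b-3p, miR-466c-3p, miR-466e-3p and miR-466b-3-3p, and the probe called miR-297b-3p also stands for miR-297a* and miR-297c*.

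All mice were C57Bl6 males, 6 to 8 weeks old, and all had undergone partial ligation of the left carotid, in which its caudal branches other than the superior thyroid artery were tied. Low, oscillating flow was checked by ultrasound. The 4 groups were the left, ligated carotid at 12 h, the right carotid of operated mice at 12 h, the left carotid at 48 h and the right carotid at 48 h, with 6 arrays in each. No artery of a sham-operated or untouched mouse was included, so flow, surgery and side of the body cannot be told apart. The intima was flushed with Qiazol, and RNA was labelled with Cy3 for an Illumina bead array. Within each artery at 12 h, array 4 repeated array 1, array 5 repeated array 2 and array 6 repeated array 3 (rank correlations of 0.986 to 0.998, against at most 0.874 for other pairs of a group). Each such pair was averaged and counted as 1 sample, so that n = 3 per artery at 12 h and n = 6 at 48 h. The labels do not say whether the samples came from separate animals or pools, and p-values therefore measure only the spread between them, part of which may be technical.

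A miRNA guides the Argonaute complex to messenger RNAs, mainly by pairing of its seed, bases 2 to 8. Most genes of these families lie in a tandem cluster inside an intron of Sfmbt2, a Polycomb-group gene whose paternal copy is preferentially expressed in the rodent placenta, where this cluster is known for high expression. Some single members have been studied elsewhere: mouse miR-669a as a brake on the muscle factor MyoD in cardiac progenitors, mouse miR-466l as a stabiliser of interleukin 10 transcripts in macrophages, and mouse miR-467b as a repressor of lipoprotein lipase in macrophages. By RefSeq (assembly GRCm38.p6), 71 miRNA genes lie within Sfmbt2 on chromosome 2, and all 71 belong to these 4 families. Of the 40 probes, 32 matched a gene within Sfmbt2, among them miR-297a, whose 6 loci in the files lie on several chromosomes. Another 7 matched genes elsewhere, so the Sfmbt2 name does not cover them: miR-466f, miR-466i (within Cdk13), miR-466j, miR-466k (within Gm31419), miR-467f (within Fxr2), miR-467g (within Grk4) and miR-467h. miR-466a-5p matched no RefSeq gene by name. The files place it on chromosome 2 at 10429554, between miR-467d (10429266) and miR-297c (10430652), which both matched genes within Sfmbt2.

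The sequences below are those on which the results turn, as the deposited tables give them in DNA letters, 5′ to 3′, with the seed in capitals. The first set holds 5 miR-669 members, among them miR-669e and miR-669a, which took opposite values at 48 h.
miR-669e: tGTCTTGTgtgtgcatgttcat
miR-669a: aGTTGTGTgtgcatgttcatgt
miR-669d: aCTTGTGTgtgcatgtatatgt
miR-669c: aTAGTTGTgtgtggatgtgtgt
miR-669b: aGTTTTGTgtgcatgtgcatgt
The second set holds 3 bright CA-repeat members.
miR-466f-3p: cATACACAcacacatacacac
miR-466i: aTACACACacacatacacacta
miR-467f: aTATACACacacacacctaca
The third set holds the miR-297 members that share 1 seed, since 1 was detected on every array and the others were not.
miR-297a: aTGTATGTgtgcatgtgcatgt
miR-297b-5p: aTGTATGTgtgcatgaacatgt
miR-297c: aTGTATGTgtgcatgtacatgt
The fourth holds 3 of the members that share another seed and had values below 0 at 12 h.
miR-297b-3p: tATACATAcacacatacccata
miR-466a-3p: tATACATAcacgcacacataaga
miR-466d-3p: tATACATAcacgcacacatag
The fifth holds 3 near-identical members with 1 seed that differed in detection.
miR-466a-5p: tATGTGTGtgtacatgtacata
miR-466b-5p: gATGTGTGtgtacatgtacatg
miR-466e-5p: gATGTGTGtgtacatgtacata

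The 40 sequences carried 26 different seeds, and 9 of these seeds were shared by 23 members. The motif TGTGTG, read on the miRNA strand alone, occurred in 19 members (47.5%), against 4.27% of all 655 targets. ACACAC occurred in 9 (22.5%), against 2.44%, and no count was made on the opposite strand. At least 1 of these motifs was present in 28 members (70.0%, against 6.72%). By their commoner dinucleotides, 26 members were GT-rich and 14 CA-rich.

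The probes are not independent sequences. Probes were 16 to 23 bases long, and 32 of 40 shared an unbroken run of at least 12 bases with the mature sequence of another member, 24 of them a run of at least 15. The probes of miR-669e and miR-669a share the 16-base run TTGTGTGTGCATGTTC, on chromosome 2. Against the mature miR-669e sequence, the 18-base probe of miR-669a has a run of 17 bases and 1 mismatch. The miR-466f-3p and miR-466i targets share 20 bases. How far a probe takes up signal of a neighbouring family member was not tested.

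The depth of an array is given here by the number of probes detected, at a detection p under 0.05. It was 397 to 431 of 655 on left arrays and 364 to 400 on right arrays at 12 h, and 360 to 404 on left and 335 to 410 on right arrays at 48 h. The number of arrays limits the precision of every value below. Of 24 cell type markers, 16 were tested at each time and 0 passed the threshold at 12 h or at 48 h (limma; 4 and 6 at an unadjusted p under 0.05). Both strands of miR-126, the defining miRNA of endothelium, were detected on every array. So were miR-143 and miR-145 of smooth muscle, which averaged log2 signals of 13.53 to 14.32 over the 4 groups, and the myeloid miR-223. At 12 h miR-126-3p averaged 14.35 on the left and 14.40 on the right, and miR-126-5p 14.54 and 14.53. At 48 h miR-126-3p averaged 10.67 on the left and 8.82 on the right (log2 change 1.86 ± 0.87 SE, limma adjusted p = 0.272). There miR-126-5p went the other way, at 13.36 and 13.99 (-0.63 ± 0.51 SE, adjusted p = 0.533). In such bulk samples, fewer cells of a type and less RNA per cell cannot be told apart.

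The families were detected about as often as other miRNAs on the array. Of the 40 probes, 13 (32.5%) were detected on every array, against 33.6% of all probes. Those 13 were miR-297a, miR-297b-3p, miR-466a-3p, miR-466a-5p, miR-466f, miR-466f-3p, miR-466f-5p, miR-466i, miR-466l, miR-467a, miR-467f, miR-467h and miR-669c. miR-466k and miR-467g were detected on none (5%, against 10.7%). Members detected per array numbered 22 to 26 on left arrays and 20 to 25 on right arrays at 12 h, and 22 to 25 on left and 23 to 27 on right arrays at 48 h. By family, every-array detection was met by 2 of 4 miR-297 probes, 7 of 16 miR-466 probes, 3 of 8 miR-467 probes and 1 of 12 miR-669 probes. Enough detected arrays for a test were reached by 26 members at 12 h and 26 at 48 h, 23 of them at both. The 11 tested at neither time were miR-466b-5p, miR-466d-5p, miR-466e-5p, miR-466k, miR-467d, miR-467g, miR-669g, miR-669h-5p, miR-669i, miR-669j and miR-669k, detected on at most 4 of the 24 arrays. miR-466d-3p, miR-669d and miR-669f were tested only at 12 h, and miR-297b-5p, miR-466j and miR-467c only at 48 h. The minor strands outside the members, measured by 3 probes for miR-467a*, miR-467b* and miR-467e*, were detected on at most 2 arrays of any group. They were not tested. The member probe of miR-297b-3p, which also stands for miR-297a* and miR-297c*, was detected on every array.

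**Figure D1:**
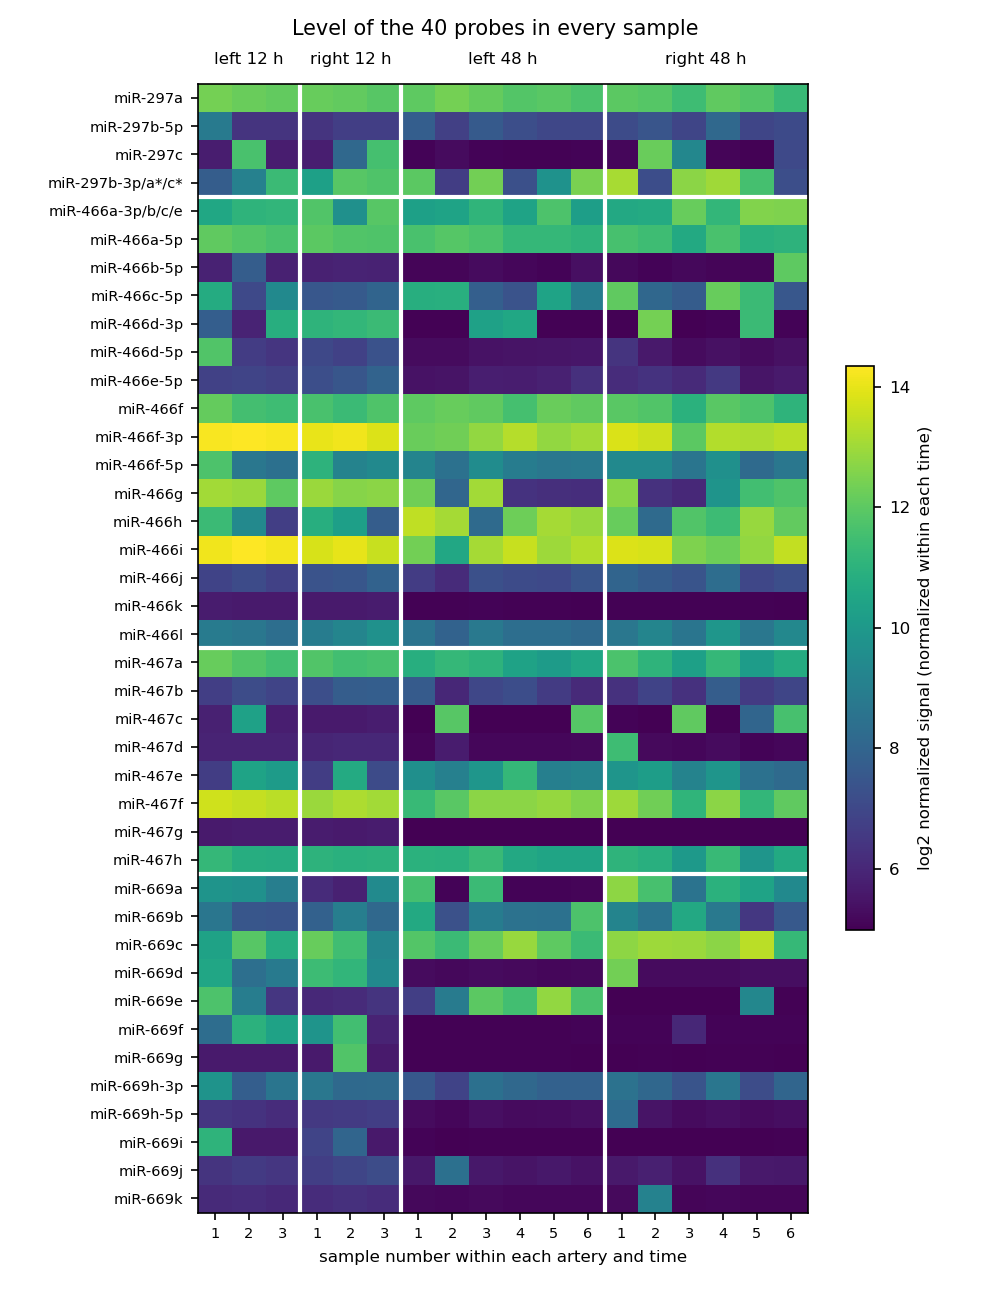
Log2 normalized signal of the 40 probes (rows, by family) in each of the 18 samples (columns, left before right at 12 h and then at 48 h). Colour gives the signal on a scale shared by both times, each normalized by itself. miR-466f-3p and miR-466i are bright in every sample, while miR-669a, miR-669e, miR-297c, miR-466d-3p and miR-467c switch between background and bright within a group.

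Signals are given as log2 of the background-corrected, quantile-normalized intensity, in which miR-467g, detected on no array, averaged 5.67 in left samples at 12 h and 5.00 in left samples at 48 h. The brightest member was miR-466f-3p, at rank 17 of 655 probes at 12 h and rank 54 at 48 h. It had log2 signals of 14.26, 14.35 and 14.27 in left samples at 12 h, against 14.04, 14.16 and 13.86 in right samples. At 12 h the left samples were each above the highest right sample. At 48 h its lowest, median and highest signals were 12.22, 12.83 and 13.32 in left samples, against 11.98, 13.33 and 13.82 in right samples, and the groups overlapped.

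miR-466i, whose gene lies in Cdk13 and not in Sfmbt2, came next at both times (ranks 26 and 60). Its log2 signals at 12 h were 14.15, 14.33 and 14.19 on the left, against 13.77, 13.99 and 13.56 on the right, with no overlap. At 48 h they ran over 10.61, 13.03 and 13.56 (lowest, median, highest) on the left and 12.29, 13.17 and 13.85 on the right, overlapping. miR-467f, within Fxr2, had 13.68, 13.53 and 13.39 on the left at 12 h, against 12.94, 13.18 and 13.07 on the right. At 48 h its signals were 11.31, 12.65 and 12.86 on the left, against 11.11, 12.18 and 12.98 on the right. The left samples were thus the higher ones at 12 h for all 3 of these CA-repeat members, and neither artery was set apart at 48 h.

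The other members bright by rank were miR-466g (rank 83) and miR-297a (rank 116) at 12 h, and miR-669c (rank 83) and miR-297a (rank 101) at 48 h. miR-297a was the steadiest of these: it averaged 12.23 ± 0.15 on the left and 12.07 ± 0.13 on the right at 12 h (SD, n = 3 each), and 12.00 ± 0.24 on the left and 11.75 ± 0.29 on the right at 48 h (SD, n = 6 each). miR-297c, which shares its seed and most of its sequence, was detected on 2 left and 4 right arrays at 12 h and on 0 left and 3 right arrays at 48 h. miR-297b-5p, the third of that seed, was detected on 2 left and 0 right arrays at 12 h and on 6 left and 5 right arrays at 48 h. The 3 members thus had different detection patterns with 1 seed.

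The same was seen among the miR-466 5′ strands. miR-466a-5p was detected on every array and averaged 11.86 ± 0.20 on the left and 11.85 ± 0.11 on the right at 12 h (SD, n = 3 each), and 11.45 ± 0.33 on the left and 11.22 ± 0.41 on the right at 48 h (SD, n = 6 each). miR-466b-5p was detected on 3 arrays in all and miR-466e-5p on 2, although each of their probes shares a 21-base run with another of these 3 members. Among members detected on every array, miR-467a averaged 11.83 ± 0.32 on the left and 11.65 ± 0.16 on the right at 12 h, and 10.69 ± 0.42 on the left and 10.86 ± 0.57 on the right at 48 h. miR-467h, in the same family but with its gene on chromosome 9, averaged 10.94 ± 0.26 on the left and 10.99 ± 0.06 on the right at 12 h, and 10.79 ± 0.34 on the left and 10.64 ± 0.57 on the right at 48 h. For miR-466a-5p, miR-467a and miR-467h the arteries overlapped at both times.

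**Figure D2:**
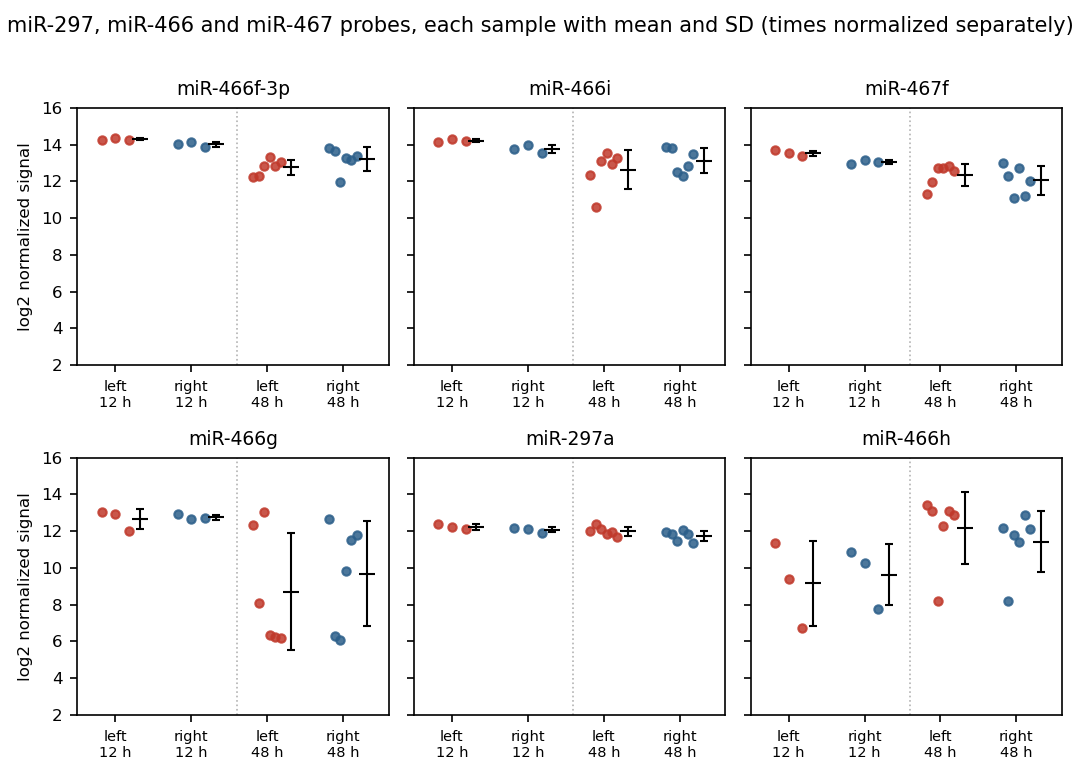
Log2 normalized signal of 6 members, with red points for left and blue points for right samples, and black bars for the mean and SD of each group. miR-297a keeps within 0.71 log2 units in every group, whereas miR-466g ranges over 6.86 log2 units in left samples at 48 h.

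A wide spread within a group was common. Among members tested, 6 of 26 at 12 h (23.1%, against 15.6% of the 430 probes tested) and 9 of 26 at 48 h (34.6%, against 38.6% of 407) ranged over at least 4 log2 units in at least 1 artery. The share is near that of other probes. The widest range was that of miR-466d-3p, 7.39 log2 units in right samples at 48 h, where samples 2 and 5 had 12.41 and 11.38 and the others 5.07 or less. miR-669d was detected in right sample 1 alone at 48 h (12.35).

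The first comparison asked which members differed between ligated and control artery 12 h after surgery. No member passed: 0 of the 26 tested members were called, against 0.465% of all 430 probes tested (limma with Benjamini-Hochberg adjustment over all 430, threshold 0.05). At an unadjusted p under 0.05 there were 3 members (11.5%), against 9.53% of all probes. All 3 were higher on the left, as were 5.58% of all probes. These 3 were CA-repeat members shown above. The log2 change was 0.47 ± 0.11 SE for miR-467f (limma adjusted p = 0.251), 0.45 ± 0.12 SE for miR-466i (adjusted p = 0.280) and 0.27 ± 0.08 SE for miR-466f-3p (adjusted p = 0.297). miR-466g, a CA-repeat member also bright at 12 h, stood at -0.09 ± 0.29 SE (limma adjusted p = 0.928). Of the 10 CA-rich members tested at 12 h, 5 had fitted changes above 0 and 5 below. The targets of miR-466f-3p and miR-466i share 20 bases and that of miR-467f shares 13 with each of them, and how far these probes measure separate miRNAs was not tested. For 7 members (26.9%) the ranges of the arteries did not overlap, against 19.1% of all probes. Left lay above right in 4 of them (15.4%, against 6.05%) and below in 3 (11.5%, against 13%). The 4 were the 3 members above that share sequence and miR-669e. For miR-669e the lowest left value (6.46) and the highest right value (6.39) were both undetected, where values hold no order. When every array was taken as a sample of its own, which counts repeats as independent, 6 members passed.

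The 2 largest fitted rises at 12 h belonged to miR-669e and miR-669a, both undetected in some right samples. miR-669e had log2 signals of 11.71, 8.93 and 6.46 in left samples, against 6.05, 6.12 and 6.39 in right samples. It was detected on 4 left arrays and on 0 right arrays (fitted log2 change 2.85 ± 1.31 SE, adjusted p = 0.497). Left sample 3 was undetected too, so that both arteries hold values at background and no least fold is given. miR-669a had 9.82, 9.72 and 8.99 on the left, against 6.14, 5.84 and 9.47 on the right, with right sample 3 among the left values (2.36 ± 1.04 SE, adjusted p = 0.497). miR-466c-5p and miR-467e came next, at 1.36 ± 0.96 SE and 0.90 ± 1.48 SE.

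At the other end at 12 h, miR-466d-3p had 7.77, 5.90 and 10.87 on the left, against 11.08, 11.20 and 11.35 on the right. All left samples lay below all right samples, and left sample 2 was undetected (log2 change -3.03 ± 1.24 SE, limma adjusted p = 0.495). The probe of miR-297b-3p, with the same seed, had 7.73, 9.09 and 11.38 on the left, against 10.31, 11.91 and 11.77 on the right (-1.93 ± 1.02 SE, adjusted p = 0.497). The log2 change was -0.20 ± 0.67 SE for miR-466a-3p, the other tested member with that seed. miR-669d stood at -1.43 ± 0.80 SE and miR-297c at -0.78 ± 2.17 SE. Fitted changes were above 0 for 14 of the 26 members (53.8%, against 44.4% of all probes), and their median was 0.04, against -0.05 over all 430.

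The second comparison asked the same at 48 h, the time named in the title of the series. The probe of miR-669e passed, 1 of 26 members tested (3.85%), against 2.95% of all 407 probes and 1.97% in the same direction. At an unadjusted p under 0.05 there were 3 members (11.5%), against 17.7% of all probes. No member had left and right samples free of overlap, against 4.67%. These shares are near or below those of the array as a whole.

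miR-669e, which the files place on chromosome 2 from position 10389163 on the plus strand, in a build not given in the sources used here, had a lowest, median and highest log2 signal of 6.73, 11.59 and 12.82 in left samples, against 4.98, 5.00 and 9.31 in right samples. It was detected in all 6 left samples and in 1 right sample. That right sample, number 5, lay above left samples 1 and 2, so the groups overlapped. The rise of miR-669e was fitted at 4.88 ± 1.11 SE log2 units (limma adjusted p = 0.0315). As 5 of 6 right samples were at background, the size of this change depends on where background is set. The raw signal had a median of 3225 in left samples, against 30.0 in right samples.

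The call on miR-669e lay near the threshold and depended on which samples were kept. It was lost when any 1 of 9 of the 12 samples was left out (each of left samples 3 to 6 and right samples 1, 2, 3, 4 and 6) and kept without left sample 1, left sample 2 or right sample 5, with adjusted p between 0.0109 and 0.0739 and changes between 4.44 and 5.66. Scaling to the 75th percentile (4.69, adjusted p = 0.0824), a fit without the intensity trend (4.88, adjusted p = 0.0546) and leaving out right samples 4 and 1, which had the fewest probes detected (4.52, adjusted p = 0.104), also ended it. Under the stricter detection filter miR-669e was not tested. Markers of other cell types also had different values in the 2 arteries at 48 h, none past the threshold. The myeloid miR-223 averaged 14.45 ± 0.27 in left and 12.50 ± 1.57 in right samples at 48 h (SD, n = 6 each). Its limma adjusted p was 0.107. Of the other leukocyte markers, miR-142-3p stood at 0.15 (adjusted p = 0.866) and miR-150 at 0.51 (adjusted p = 0.857), and miR-142-5p was not tested. The 4 leukocyte markers summed to a log2 level of 14.24 to 14.80 in left and 11.75 to 14.17 in right samples. The erythroid miR-451 stood at -1.63 (adjusted p = 0.407) and miR-486 at 0.03 (adjusted p = 0.857), and miR-144 was detected on no array. The 3 erythroid markers summed to 14.45 to 15.19 in left and 14.64 to 15.40 in right samples. Of smooth muscle, miR-145 stood at -0.21 ± 0.06 SE (adjusted p = 0.0992) and miR-143 at -0.31 ± 0.14 SE (adjusted p = 0.262), with a summed level of 14.75 to 15.15 in left and 14.94 to 15.31 in right samples. The epithelial miR-200c was detected on 6 left and 2 right arrays (log2 change 4.37, adjusted p = 0.0898), while miR-200b, on every array, stood at -0.49 (adjusted p = 0.424) and miR-141 was detected on none at 48 h. The 5 epithelial markers summed to 11.95 to 14.07 in left and 10.83 to 12.01 in right samples. The neuronal miR-128 was detected on all arrays (log2 change 2.97, adjusted p = 0.0892), miR-124 stood at -0.23 (adjusted p = 0.896), and the 3 neuronal markers summed to 8.91 to 12.15 in left and 7.96 to 11.26 in right samples. The muscle miR-1 was detected on 1 left and 4 right arrays (log2 change -4.12, adjusted p = 0.158) and miR-208a on none, while miR-133a stood at -0.17 and miR-133b at 0.14. The 5 striated muscle markers summed to 10.50 to 12.52 in left and 10.42 to 14.55 in right samples. Their part in the result for miR-669e was not tested.

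miR-669a went the other way at 48 h. It was detected in left samples 1 and 3 alone (11.59 and 11.38), with the other left samples between 5.06 and 5.12, and in all 6 right samples, whose lowest, median and highest signals were 8.55, 10.68 and 12.75. The left values of these 2 samples fell within the right range (log2 change -3.40 ± 1.38 SE, limma adjusted p = 0.212). The left samples in which the miR-669a probe was at background were numbers 2, 4, 5 and 6, in all of which miR-669e was detected. In right samples 1, 2, 3, 4 and 6 the reverse held. Both probes were detected in left samples 1 and 3 and in right sample 5. The probes share the 16-base run given above, and how far each takes up signal of the other was not tested.

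**Figure D3:**
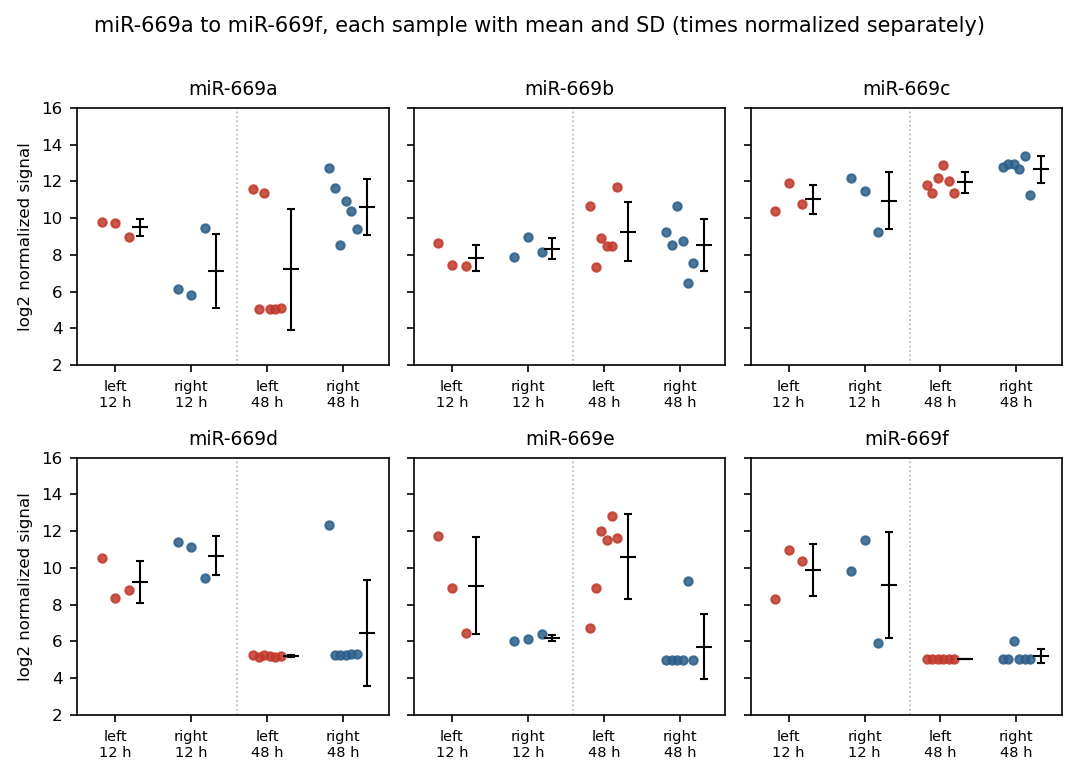
Log2 normalized signal of miR-669a to miR-669f, with red points for left and blue points for right samples, and black bars for the mean and SD. At 48 h, miR-669e is detected in all 6 left samples and in 1 right sample, and miR-669a in 2 left samples and all 6 right samples.

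No further miR-669 member passed at 48 h, and the arteries overlapped for each of those tested. miR-669c had a lowest, median and highest signal of 11.35, 11.93 and 12.91 on the left, against 11.25, 12.85 and 13.38 on the right (-0.72 ± 0.38 SE, limma adjusted p = 0.307). miR-669b stood at 0.72 ± 0.84 SE (adjusted p = 0.694). miR-669h-3p stood at -0.18 ± 0.36 SE. miR-669d and miR-669f were detected on no left array and 1 right array each and were not tested at 48 h.

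Among the miR-466 and miR-297 members at 48 h, miR-466l had 7.91, 8.37 and 8.78 (lowest, median, highest) on the left, against 8.62, 8.98 and 9.91 on the right (-0.72 ± 0.31 SE, unadjusted p = 0.0410, adjusted p = 0.261). It is the one further member with an unadjusted p under 0.05, named after its values were seen. miR-297c was detected on 0 left and 3 right arrays (fitted change -2.23 ± 1.11 SE, adjusted p = 0.299). Right samples 2, 3 and 6 had 12.22, 9.31 and 7.05, and all other samples of both arteries 5.25 or less. With undetected samples in both arteries, no least fold is given. miR-466g stood at -0.98 ± 1.62 SE, and miR-466a-3p at -0.93 ± 0.46 SE (adjusted p = 0.299). The largest rises besides miR-669e and miR-669b were 0.74 ± 0.98 SE for miR-466h, studied in hamster cells as a pro-apoptotic miRNA, and 0.44 ± 0.26 SE for miR-466f.

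**Figure D4:**
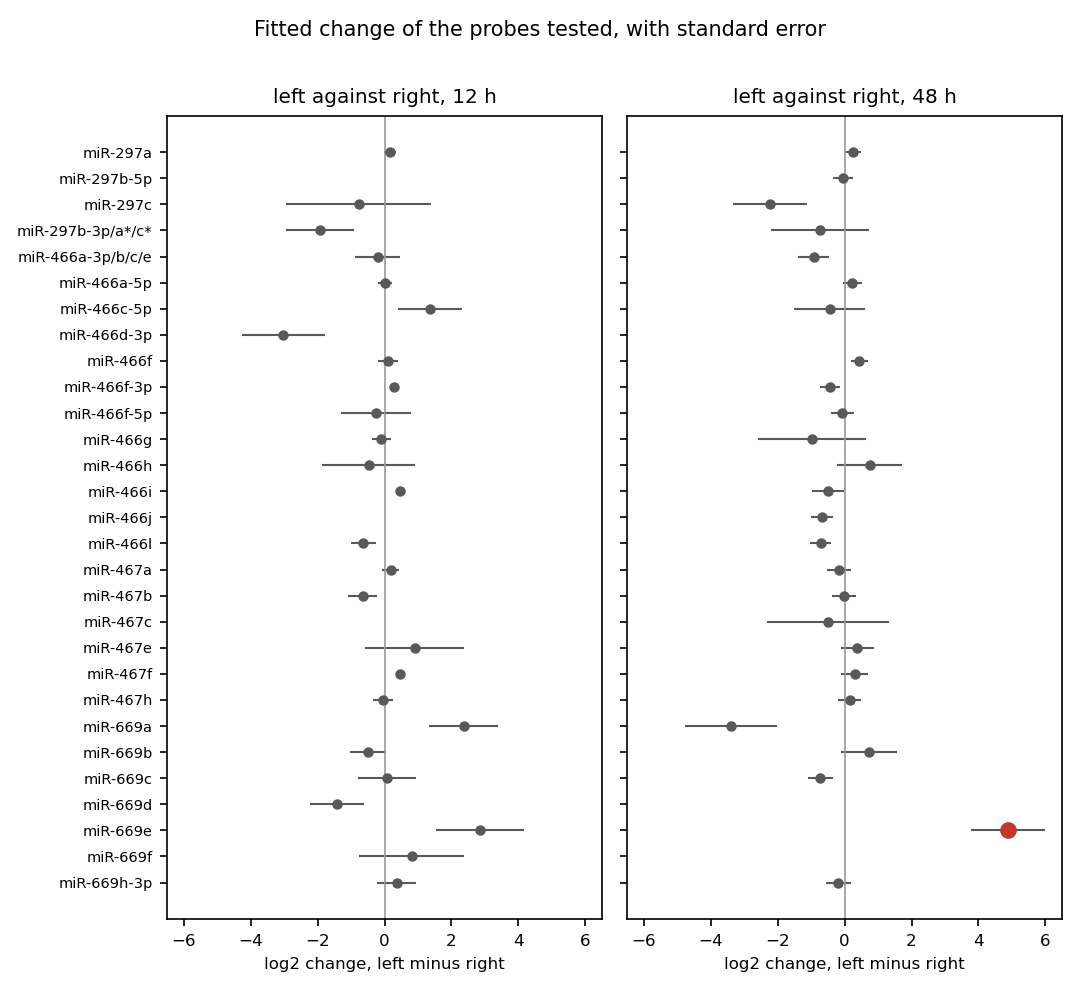
Fitted log2 change, left minus right, at 12 h (left panel) and 48 h (right panel) for the 29 members tested at either time, with SE as horizontal bars. The red point at 48 h is miR-669e, the member past the adjusted threshold of 0.05. Members without a point at a time were not tested there.

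As a list, the members had 9 fitted changes above 0 and 17 below at 48 h (34.6% above, against 49.9% of all probes), with a median of -0.18, against -0.00 over all 407 probes. With right samples 1 and 4 left out, whose arrays detected the fewest probes, the members' median was 0.12, against 0.08 over all probes, so the sign of the members' median depended on these samples. By repeat type, 1 of 8 CA-rich members tested was above 0 (median -0.60), and 8 of 18 GT-rich members were (median -0.04). Of the members matched within Sfmbt2, 5 of 20 were above 0 (median -0.32), and of those matched elsewhere 3 of 5 (median 0.15). miR-466a-5p, matched to no gene, stood at 0.23 and is in neither count. These are counts over probes that share sequence and arrays, and no test was made of them. GU-repeat miRNAs of other genes gave -0.84 ± 0.31 SE for miR-574-5p (limma adjusted p = 0.158) and 0.04 ± 0.97 SE for miR-1187 at 48 h. At 12 h they gave -0.33 ± 0.06 SE (adjusted p = 0.201) and -0.16 ± 0.25 SE.

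The third comparison asked whether the left-right change differed between times. Of 29 members tested, 0 passed, against 0.211% of all 474 probes tested (limma). At an unadjusted p under 0.05 there was 1 member, against 10.3% of all probes. It was miR-669a, for which the left-right change at 48 h minus that at 12 h was -5.76 ± 2.19 SE on the log2 scale (adjusted p = 0.333). For miR-669e it was 2.04 ± 1.90 SE (adjusted p = 0.722), and its call at 48 h alone does not show a difference from 12 h.

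Levels at 48 h and 12 h were set side by side after all arrays were normalized together. Time and deposited table coincide, so time and table cannot be told apart, and no test was made. miR-669f averaged 9.63 ± 1.59 on the left and 8.88 ± 3.04 on the right at 12 h (SD, n = 3 each), and 5.46 ± 0.02 on the left and 5.70 ± 0.53 on the right at 48 h (SD, n = 6 each). miR-669d averaged 8.86 ± 1.32 and 10.51 ± 1.25 on the left and right at 12 h, and 5.73 ± 0.07 and 6.92 ± 2.65 at 48 h. Together with miR-466g, these were the 3 members at least 2 log2 units lower at 48 h in both arteries (10.3%, against 9.28% of all probes). miR-466h was the 1 member at least 2 log2 units higher at 48 h in both (3.45%, against 5.7%), at 8.88 ± 2.53 and 9.34 ± 1.85 on the left and right at 12 h and 12.26 ± 1.75 and 11.52 ± 1.43 at 48 h.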

How the data were processed

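Per the labels, RNA of the carotid intima was hybridised to Illumina miRNA bead arrays. Both deposited tables, 1 per time, hold a mean signal intensity and its detection p-value for each probe on each array, exported with GenomeStudio 2010.2 per the submitters' processing notes. The authors' deposited processed intensity values followed quantile normalization within each time and were used to tie each table to its time (rank correlation at least 0.99998, against at most 0.759 for the other time). Slides and scan dates are not given in the sources used here.

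Signals were normalized within each time with neqc (limma 3.58.1, R 4.3.3; offset 16). Testing required a detection p under 0.05 on 3 or more arrays of either artery. The contrasts (left against right at each time, and the difference of these changes) were fitted with lmFit and eBayes (trend), and two-sided p-values were adjusted by Benjamini-Hochberg across the whole table. The fit was checked on simulated data. Repeat arrays were averaged.

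Values are given for members past the threshold, the 4 largest rises and falls at each time, the 5 brightest at each time and members of all-or-none detection, which names 18. Values of some further members, among them miR-466a-5p, miR-466l, miR-467a, miR-467h, miR-669f and miR-669h-3p, are given outside that rule. Members and lists were chosen with earlier results of these data known. Sequences and loci came from the deposited tables and genes from RefSeq (GRCm38.p6). All 5 mature sequences that RefSeq lists under a matching name were the same. Alternatives were other backgrounds, scalings, offsets, filters and fits, a replicate block, and samples left out.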

Additional observations from a re-analysis of the deposited data

Results flagged for a closer look

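Single samples stood apart from the rest of their group at 48 h, by Dixon's gap at its 95% critical value, in 8 of 36 groups of the named members (22.2%), where chance gives about 1 in 20. The named members were chosen partly for large changes. Over all probes tested at 48 h the share was 16.3% (133 of 814 groups), and over the members tested it was 13.5% (7 of 52). For miR-669e it was right sample 5, at a log2 signal of 9.31, with the other right samples at 5.02 or less. For miR-669d it was right sample 1, at 12.35, and for miR-669c right sample 6, at 11.25, below the others. miR-466h had a low sample in each artery, left sample 3 at 8.23 and right sample 2 at 8.21. Left sample 4 was low for miR-466f, at 11.59, and right sample 3 was low for miR-466f-3p, at 11.98. Left sample 2 was high for miR-297c, at 5.25, with the probe undetected on every left array, where values hold no order. No slide or scan record was used here, and the causes were not tested.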

How the results depend on the processing

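No called result of a named member changed direction under any alternative run: of 1090 values of named members under alternatives, 1070 kept their side of the threshold, 13 lost it and 7 gained it. All 13 losses were those of miR-669e at 48 h, the only called result. Most of the 1070 were thus uncalled results that stayed uncalled, and they do not show that the call is stable. Signs changed 37 times, in 17 results, all of them not called. The 12 h count of 0 became 6 when every 12 h array was treated as a sample of its own, which counts repeat arrays as independent (miR-466d-3p lower; miR-466f-3p, miR-466i, miR-467f, miR-669a and miR-669e higher), and the count for the difference between times became 1 in that fit (miR-669a, adjusted p = 0.0465). The 48 h count of 1 became 0 with 75th percentile scaling, with the stricter detection filter, under which miR-669e was not tested, without the intensity trend, without right samples 1 and 4 together, and with the replicate number as a block (miR-669e adjusted p = 0.0933). Leaving out 1 sample gave counts of 0 to 1 at 48 h, and 0 at 12 h and for the difference. The labels do not say whether same-numbered left and right samples share an animal, and the numbers were not taken to pair them. Correlations of same-numbered deviations were 0.0245 to 0.0599 at 12 h, where 3 of 3 correlated best with their own number, and -0.175 to 0.0242 at 48 h (0 of 6). The members' median change stayed between 0.00 and 0.11 at 12 h (-0.10 to 0.23 with 1 sample left out) and between -0.20 and 0.12 at 48 h (-0.22 to -0.01). At 12 h the 75th percentile scaling moved the median of all probes to 0.07, against -0.05, and that of the members to 0.11, against 0.04. Members at background limit the size of any fold: their values hold no order.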
